A study of Piaractus mesopotamicus with 6 samples.

Results

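The genes described here are those whose products modify, fold, trim and cross-link collagen in the pacu, Piaractus mesopotamicus, a freshwater fish farmed in South America. The set was chosen by gene symbol and held 10 names: lox, loxl1, loxl2b, plod1a, plod2, plod3, p4ha1b, p4ha2, serpinh1b and pcolcea. Matched without regard to case, 9 of the 10 were among the 16347 gene names of the expression table, and they covered 67 of its 71447 assembled transcripts. The symbol lox was not among the names. A gene listed as loxa was read instead, a choice made after the names were seen, and it is not counted among the 9.

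The study compared RNA of muscle cells grown in a dish with RNA of the muscle they are taken from, with 3 libraries of each kind. All fish were wild-type juveniles of 12 to 20 g kept at 28 °C under 12 h of light and 12 h of dark and fed a commercial diet. The cultured group was primary muscle cells from fast-twitch epaxial muscle, pooled from 12 animals per isolation and grown in a complete medium (DMEM, 10% fetal bovine serum, 1% antibiotics). The tissue group was fast-twitch muscle of the same region, taken from 6 animals. The labels give neither the culture time nor whether the cells had been induced to differentiate, and do not say which animals or cultures stand behind each library, so p-values here measure the spread between these libraries, which may be partly technical.

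Fibrillar collagen is made as a procollagen chain that is hydroxylated on proline and lysine in the endoplasmic reticulum. Hydroxyproline lets the triple helix hold at body temperature, and hydroxylysine provides sites for sugar attachment and for cross-links. A collagen-specific chaperone escorts the helix to the Golgi. Outside the cell the propeptides are cut off and lysyl oxidases convert lysine and hydroxylysine side chains to reactive aldehydes, which join neighbouring molecules into a stable fibre. In muscle this machinery serves the connective tissue sheaths around fibres, which are made largely by fibroblasts. The roles given for each gene are those known from mammals.

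The table gave normalised counts, that is read counts divided by a size factor for each library, for 105795157 to 124752600 reads per library. A single read was worth 0.391 to 0.439 in a library of cells, while in tissue it was worth 1.98 to 2.67, so 3 reads corresponded to at most 1.32 in cells and 8.02 in tissue, for counting error only. Fast fibre markers were checked against the tissue label. Their summed level was 11213607 to 16436680 in tissue and 750 to 5326 in cells, and 14 of 14 were lower in cells, against 21.7% of all names. In the cell libraries the muscle progenitor marker pax7b was present, at 925, 1051 and 1133 against 428, 538 and 302 in tissue, while desma, which encodes desmin, stood at 177, 544 and 1529 in cells against 38115, 52399.8 and 44925 in tissue. Both come from a list of myoblast and satellite cell markers that was split. Of its 10 tested genes 3 were higher, 3 lower and 4 not past the test, with a median log2 change of 0.035. Each transcript was compared between groups with limma on log2(value + 1), and a gene is called higher or lower when its Benjamini-Hochberg adjusted p was below 0.05. Such differences are between cultured cells and tissue, and in these bulk samples fewer cells of a type and less RNA per cell cannot be told apart.

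All 9 genes were higher in the cultured cells and none was lower. Each gene is represented here by its transcript with the highest mean. The log2 changes ran from 1.87 for plod2 to 4.11 for p4ha1b, with a median of 2.84. Among all 15496 names tested the same way, 30.5% were higher and 21.7% lower in cells, with a median change of 0.59. For 9 of 9 genes the lowest cell library exceeded the highest tissue library, as was the case for 40.5% of all names. The smallest change of the set, that of plod2, was larger than the change of 71.8% of all names, and the largest, that of p4ha1b, was larger than that of 91.5%. Scaling to equal library totals moved the median of all names to 3.10 and that of the 9 genes to 5.38. Relative to the median of all names the genes stood at 2.25 on the deposited scale and at 2.28 on equal totals.

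**Figure D1:**
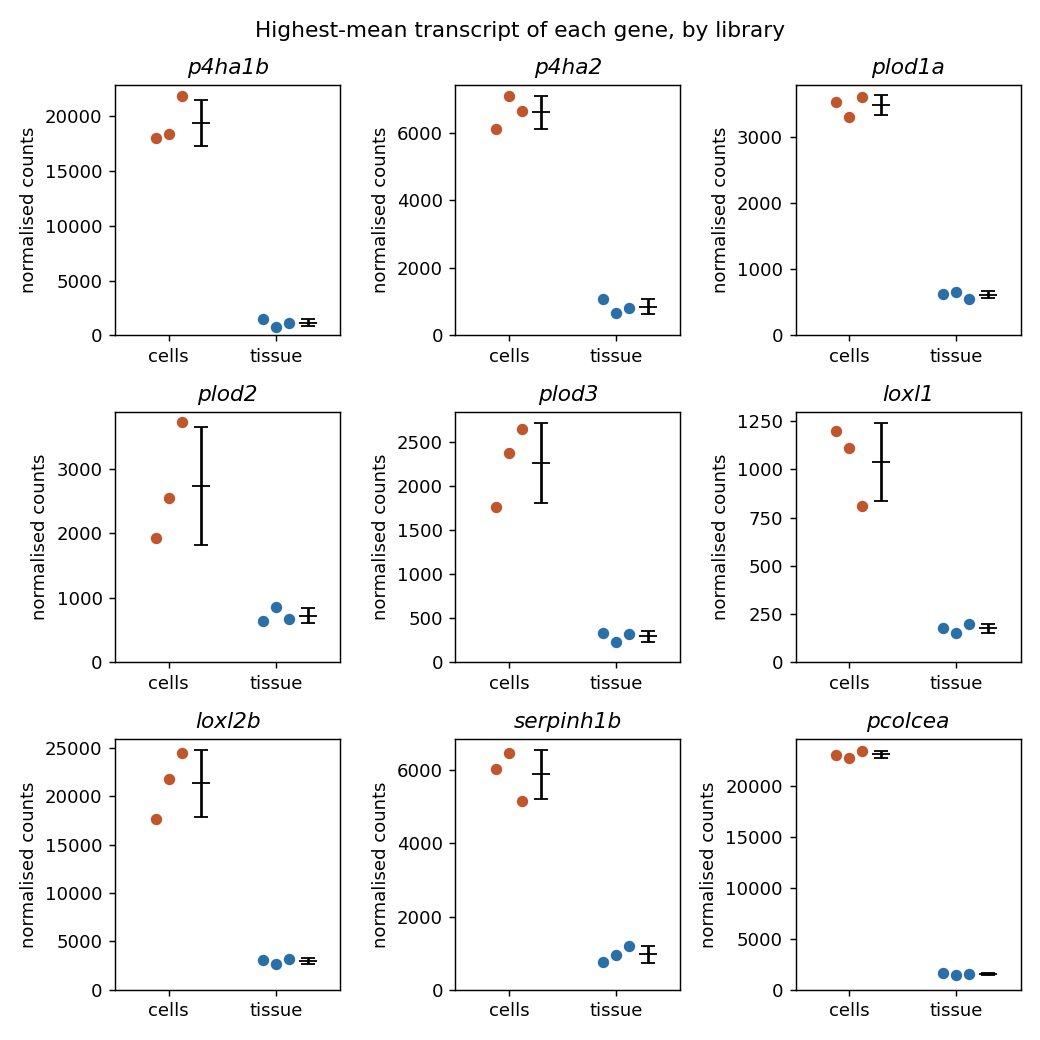
Normalised counts (vertical axes, linear and starting at 0) of the highest-mean transcript of each gene, with a point for each of the 3 cell and 3 tissue libraries and a bar for the mean ± SD. In all 9 genes the lowest cell library stands above the highest tissue library. The log2 change was smallest for plod2, with means of 724 in tissue and 2736 in cells. It was largest for p4ha1b, with means of 1158 in tissue and 19388 in cells.

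Of the prolyl 4-hydroxylase genes, p4ha1b showed the largest change of the set. It encodes a catalytic alpha subunit of the enzyme that makes hydroxyproline. Its transcript DN1279_c0_g4_i4 was at 18015, 18357 and 21790.3 in the cell libraries and at 1506, 803 and 1164 in the tissue libraries. Cell libraries were close to each other, and the spread was wider in tissue, where library 2 was lowest. The means were 19388 ± 2088 and 1158 ± 351 (SD, n = 3 each), a log2 change of 4.11 (SE 0.25, limma adjusted p = 4.21e-05). The other alpha subunit gene of the set, p4ha2, transcript DN815_c0_g1_i8, was at 6110.2, 7086 and 6653 in cells and at 1083, 659 and 814 in tissue. Its groups were likewise far apart, with tissue library 1 the highest of its group, and the log2 change was 2.98 (SE 0.21, adjusted p = 6.85e-05). The pair was also compared within libraries. The log2 ratio of p4ha1b to p4ha2, over summed transcripts, was -0.22 ± 0.20 on average (SD, n = 3) for cells and -1.13 ± 0.32 for tissue (SD, n = 3), a difference of 0.90 with no overlap between groups. The exact two-sided permutation p was 0.1, the smallest that 3 against 3 libraries allow, and 0.110 after adjustment over 23 such ratios. The sums run over 5 transcripts of p4ha1b and 22 of p4ha2, so only the groups are to be compared, not the sign. By highest transcripts p4ha1b stood above p4ha2 in every library.

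The 3 lysyl hydroxylases were all higher in cells, with log2 changes of 1.87 to 2.93. All of them hydroxylate lysine, and plod2 is the form known for acting on the telopeptides, the helix ends where cross-links start. Transcript DN36_c0_g1_i7 of plod1a was at 3528, 3303 and 3594 in cells and at 631, 657 and 551 in tissue. Both groups were tight, and the log2 change was 2.50 (SE 0.15, adjusted p = 3.47e-05). Transcript DN6716_c0_g1_i2 of plod3, whose product also adds sugars to hydroxylysine, was at 1761, 2367 and 2647 in cells and at 329, 228 and 328 in tissue. Cell library 1 was the lowest of the cells and still several times the highest tissue library, and the log2 change was 2.93 (SE 0.23, adjusted p = 0.000107).

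The smallest change of the set belonged to plod2. Transcript DN1502_c1_g3_i3 was at 1926, 2557 and 3725 in cells and at 642, 853 and 678 in tissue. The cell libraries were spread more than for any other gene of the set, with library 3 highest and a coefficient of variation of 33.4%. The means were 2736 ± 913 and 724 ± 113 (SD, n = 3 each), and the log2 change was 1.87 (SE 0.26, adjusted p = 0.00114). Cell library 3 was also the highest of its group for desma, given above, and whether the content of desmin-positive cells has a part in the spread of plod2 was not tested. Leaving out that library gave a log2 change of 1.62, and leaving out cell library 1 gave 2.10.

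Within libraries plod2 stood lower relative to plod3 in cells than in tissue. The log2 ratio of their summed transcripts was 0.40, 0.40 and 0.81 in cells and 1.25, 2.36 and 1.17 in tissue, a difference of -1.06 with no overlap (exact two-sided permutation p = 0.1, the smallest possible). Tissue library 2 was far above the other tissue libraries in this ratio. Against plod1a no such separation was seen. The log2 ratio of plod1a to plod2 was 0.91, 0.41 and -0.06 in cells and -0.0043, -0.41 and -0.06 in tissue, so that cell library 3 overlapped tissue, with a difference of 0.58 (exact permutation p = 0.3).

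The chaperone and the propeptide helper also rose, to different extents. The gene serpinh1b encodes Hsp47, the chaperone that binds procollagen in the endoplasmic reticulum. Its transcript DN111_c0_g1_i5 was at 6046, 6465 and 5155 in cells and at 744, 954 and 1196 in tissue. Library 3 was the lowest of the cells and the highest of the tissues, and the log2 change was 2.63 (SE 0.21, adjusted p = 0.000110). The gene pcolcea encodes the enhancer of the proteinases that remove the C-propeptide. Transcript DN1222_c0_g1_i22 was at 23096, 22784 and 23525 in cells and at 1594, 1416 and 1572 in tissue. These were the least variable values of the set in both groups, with coefficients of variation of 1.61% in cells and 6.34% in tissue, and the log2 change was 3.92 (SE 0.15, adjusted p = 1.10e-05). The log2 ratio of serpinh1b to pcolcea was accordingly lower in cells, at -1.39, -1.22 and -1.59, than in tissue, at -0.61, -0.06 and 0.17. The groups did not overlap, and the difference was -1.24 (exact permutation p = 0.1).

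The lysyl oxidases start the cross-linking of collagen and elastin outside the cell. Transcript DN3487_c0_g2_i1 of loxl2b, a member of the family known to act on basement membrane collagen IV, was at 17667, 21856 and 24536 in cells and at 3108, 2640.2 and 3171 in tissue. Cell library 1 was the lowest of the cells, and the log2 change was 2.84 (SE 0.20, adjusted p = 6.36e-05). The single transcript of loxl1, DN2830_c1_g4_i1, whose product is known for its part in elastic fibres, was at 1196, 1108 and 808 in cells and at 177, 151 and 201 in tissue. Here cell library 3 was lowest, the reverse of its place for loxl2b, and the log2 change was 2.54 (SE 0.23, adjusted p = 0.000158). The ratio of loxl1 to loxl2b did not separate the groups, with a log2 difference of -0.12 (exact permutation p = 0.8), and this pair was added after the data were seen because lox was not listed. The gene listed as loxa, transcript DN750_c0_g5_i4, was at 16839, 22353 and 19007 in cells and at 3215, 2751 and 2202 in tissue, a log2 change of 2.84 (SE 0.21, adjusted p = 8.33e-05).

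The libraries within a group had no order common to all 9 genes, but some places recurred. In cells library 3 was highest for 6 of the 9 genes, library 2 for 2 and library 1 for 1. Cell library 1 was lowest for 5 of the 9. In tissue library 2 was lowest for 6 of the 9. With transcripts of a name summed, 9 of 9 genes were again higher in cells, against 30.5% of all summed names. Their summed log2 changes ran from 1.99 for plod2 to 4.05 for p4ha1b, with a median of 2.79. A sum can count a read more than once where transcripts of an assembled gene share sequence, and 16.9% to 60.3% of the summed cell level of loxl2b, plod1a, plod2, plod3, p4ha1b, serpinh1b and pcolcea came from the highest transcript, against 10.0% for p4ha2 and all of it for loxl1. Whether reads were shared between gene copies such as p4ha1a and p4ha1b, or serpinh1a and serpinh1b, was not tested.

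Most but not all of the 67 transcripts shared the direction of their gene. Of the 64 that passed the filter on low values, 56 were higher in cells, 0 were lower and 8 did not pass the test, beside 27.4% of all 65662 transcripts tested that were higher. The 8 were low rows, and 7 of them belonged to minor assembled genes that carry the same name as a member. Transcript DN18685_c0_g1_i1 of serpinh1b was at 0, 22.4 and 29.6 in cells and at 96.3, 31.7 and 97.5 in tissue. Every cell library of that transcript was below every tissue library, opposite to the main serpinh1b transcripts, and its log2 change was -2.92 (SE 1.39, adjusted p = 0.124). Transcript DN146277_c0_g1_i1 of plod1a was at 0, 10.5 and 6.10 in cells and at 58.8, 3.97 and 39.8 in tissue, where the groups overlapped (log2 change -2.40, adjusted p = 0.166). Transcript DN14466_c0_g1_i2 of loxl2b was at 0, 5.27 and 40.1 in cells and at 120.4, 0 and 17.9 in tissue, with tissue library 1 alone high. A similar pattern, 163 in tissue library 1 and at most 28.8 elsewhere, was seen in DN145335_c0_g1_i1 of loxl2b, which was below the filter.

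A pair of low p4ha2 transcripts had no reads in tissue. Transcripts DN3466_c1_g1_i7 and DN3466_c1_g2_i1 had mean levels of 52.5 and 53.0 in cells and 0 in every tissue library. Against a floor of 3 reads per library these were at least 7.89-fold and at least 7.98-fold higher in cells. Both passed the filter only through their cell libraries, so within the 56 higher transcripts they could only be called higher. Their levels were all but identical in each cell library, which is what transcripts that share reads would show, though read sharing was not tested. Another transcript of the assembled gene DN3466_c1_g2, i5, was present in both groups. It was at 40.3, 30.3 and 30.5 in cells and at 32.1, 29.8 and 19.9 in tissue (log2 change 0.31, limma adjusted p = 0.676). Within serpinh1b, the assembled gene DN111_c0_g3 contributed transcripts i1 and i4 with log2 changes of 4.07 and 4.04, against 2.63 for the highest transcript.

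**Figure D2:**
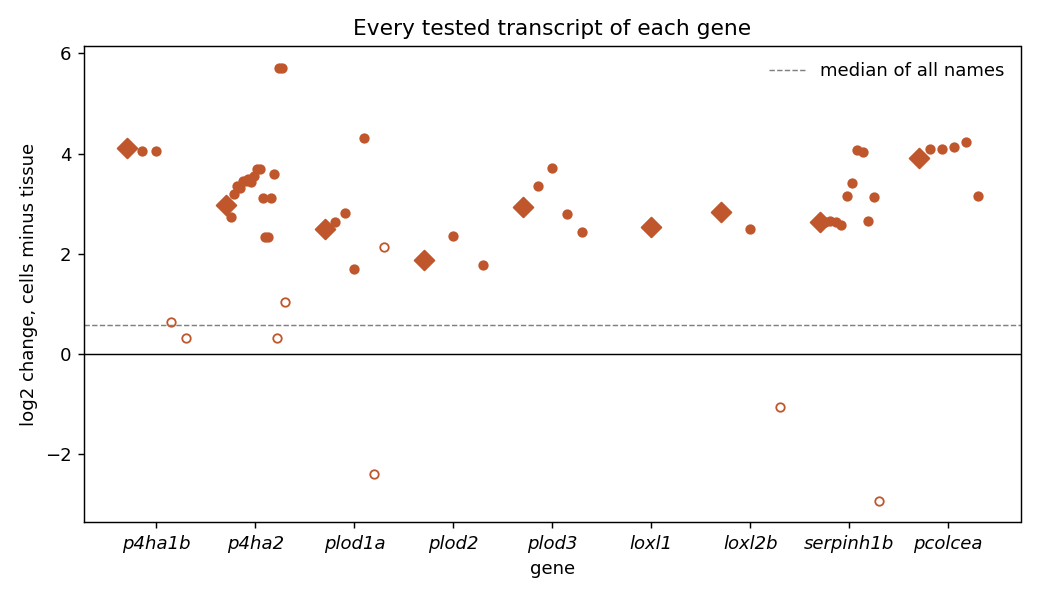
Log2 change (cells minus tissue) of every tested transcript of each gene, with 1 point per transcript, the highest-mean transcript marked apart and a dashed line at the median of all names, 0.59. Points of the main assembled genes lie between 1.69 and 4.31, and the few points near or below 0 are low rows of the same name. The highest points, at 5.72 and 5.70, are also low rows, p4ha2 transcripts at 0 in every tissue library.

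The balance between transcripts of the same assembled gene also differed between culture and muscle for some genes. A transcript's level divided by that of the highest transcript of its assembled gene in the same library does not depend on the scaling of libraries. Of 40 such ratios, 9 were higher in every cell library than in any tissue library, 7 were lower and 24 overlapped. Outside the set, 28.8% of 32515 ratios separated the groups in either direction. Among the ratios of the set that separated, 5 were those of pcolcea, which are not separate observations. With pcolcea set aside, the share was close to that outside the set. The ratios are given as a description, without a test, and not as a trait of the set.

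The clearest case in the lysyl hydroxylases was plod2. Its transcript i1 stood at 0.967, 0.993 and 1.03 times transcript i3 in cells and at 0.833, 0.684 and 0.645 times in tissue. Transcript i2 went the other way by a small margin, at 0.912, 0.918 and 0.918 in cells and 0.979, 0.972 and 0.977 in tissue. So in cells i1 was nearly level with i3, and in tissue it was the lowest of the 3. In loxl2b, transcript i2 stood at 0.657, 0.671 and 0.647 times i1 in cells and at 0.881, 0.800 and 0.824 times in tissue.

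All 5 ratios of pcolcea separated the groups, but they are not separate observations. All share i22, and i26, i17, i7 and i40 were nearly equal to each other in every cell library. Whether these share reads was not tested. Transcript i27 stood at 0.171, 0.162 and 0.159 times i22 in cells and at 0.322, 0.283 and 0.237 times in tissue. The other 4 were higher in cells, with i40 at 0.699, 0.694 and 0.702 in cells against 0.554, 0.567 and 0.576 in tissue. In p4ha2 the ratios of i42 and i43 were higher in cells and those of i53, i25 and i29 lower, while 12 of its 17 ratios overlapped. None of the 4 serpinh1b ratios and neither p4ha1b ratio separated the groups.

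**Figure D3:**
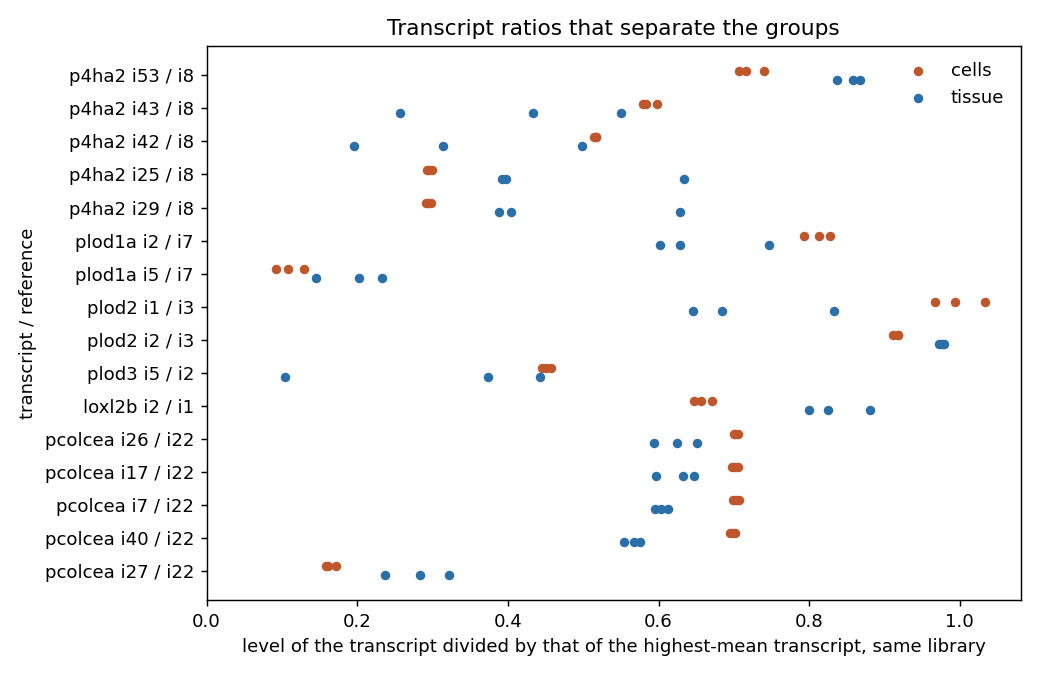
Level of a transcript divided by that of the highest-mean transcript of the same assembled gene in the same library (horizontal axis, no unit), for the 16 ratios that separate the groups, with a point for each of the 3 cell and 3 tissue libraries. The plod2 i1 points lie between 0.967 and 1.03 in cells and between 0.645 and 0.833 in tissue, and the pcolcea i27 points lie lower in cells.

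The type I collagen chains col1a1b and col1a2, taken here as reference chains, showed a smaller difference than the 9 genes. The highest transcript of col1a1b was at 163472, 183157 and 229364 in cells and at 122579.5, 105766 and 100131 in tissue. That of col1a2 was at 387798, 433773 and 521799.6 in cells and at 285998, 231149.6 and 228773 in tissue. For both chains every cell library was above every tissue library, but neither passed the test, with log2 changes of 0.80 (SE 0.45, adjusted p = 0.181) and 0.85 (SE 0.66, adjusted p = 0.316). With a robust prior variance both passed, at adjusted p = 0.00592 and 0.00387, and with voom weights at 0.00325 and 0.00165. Over summed transcripts the log2 changes were 1.39 for col1a1b (SE 0.51, adjusted p = 0.0567) and 0.84 for col1a2 (SE 0.55, adjusted p = 0.238). The highest transcripts of both chains come from a single assembled gene, DN675_c0_g2, so reads may be shared between the chains. These chains do not stand for all collagens. The log2 changes of col5a1, col5a2a, col8a2, col11a1b and col27a1b were 3.16, 3.12, 4.25, 3.25 and 4.14, above the median of 2.84 of the 9 genes. Of the 25 collagen chains tested 14 were higher, 3 were lower and 8 did not pass the test.

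Relative to col1a1b and col1a2, transcripts of all 9 genes were more abundant in cells than in tissue. The log2 ratio of each gene's summed level to that of the chain, within a library, was higher in every cell library than in any tissue library for 18 of 18 ratios. Among all other summed names this held for 15.8% against col1a1b and for 23.1% against col1a2. For p4ha1b to col1a1b the log2 ratio was -5.27, -5.43 and -5.46 in cells and -7.76, -8.54 and -7.84 in tissue. For pcolcea to col1a1b it was -4.47, -4.67 and -4.91 in cells and -7.42, -7.41 and -7.12 in tissue. The differences were 2.66 and 2.64, which correspond to 6.33-fold and 6.22-fold, and were the largest of the 9 against that chain.

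The smallest difference was again that of plod2. Its log2 ratio to col1a1b was -8.52, -8.27 and -8.00 in cells and -9.16, -8.60 and -8.83 in tissue, so that cell library 1 lay just above tissue library 2. The difference was 0.60, or 1.52-fold, and against col1a2 it was 1.15, or 2.22-fold. Each of the 18 exact two-sided permutation p-values was 0.1, the smallest possible with 3 against 3, and 0.110 after Benjamini-Hochberg adjustment over the 23 ratios. With highest-mean transcripts in place of sums all 18 still separated, with differences of 1.07 to 3.31 against col1a1b and of 1.03 to 3.26 against col1a2. The ratios of 1 library rest on the same chain value, so the 9 ratios to a chain are not independent of each other.

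**Figure D4:**
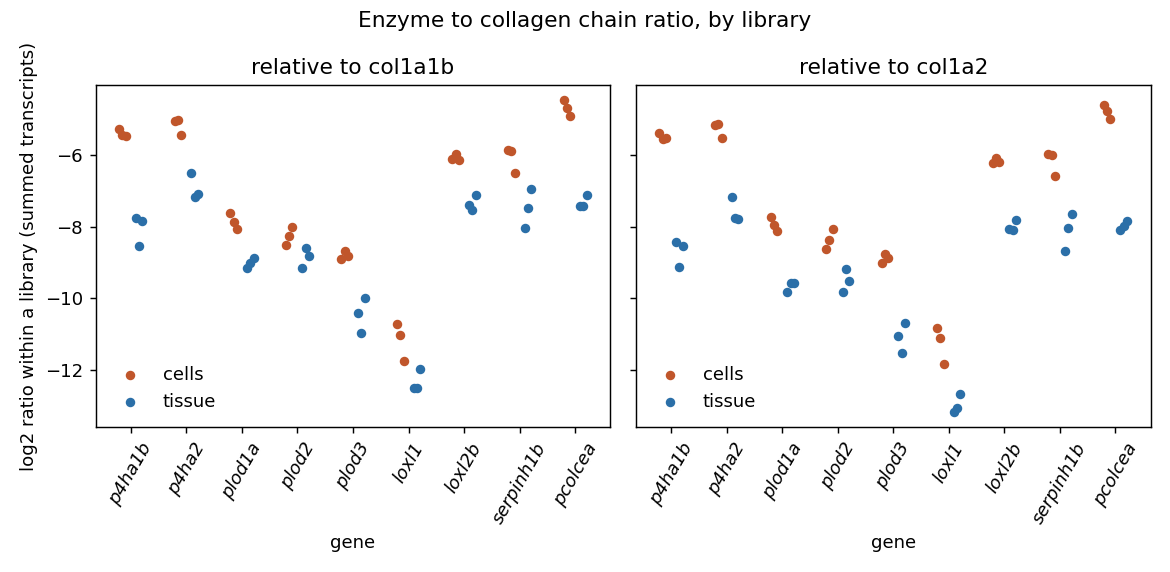
Log2 ratio of each gene's summed transcripts to those of col1a1b (left) and col1a2 (right) within a library, with a point for each of the 3 cell and 3 tissue libraries. Cell points lie above tissue points for every gene, with the smallest gap for plod2; heights differ between genes also with transcript length and number, so only the groups within a gene are to be compared.

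Further genes of the same pathway were read from 4 lists. Of their 58 names 47 were in the table and tested, and 37 were higher in cells, 0 lower and 10 not past the test, with a median log2 change of 2.12. Among all names 30.5% were higher and 21.7% lower, the shares to set beside the counts of each list. Partners of hydroxylation were higher in 11 of 11, with a median of 3.03. The highest normalised counts of the list, not corrected for length, were those of p4hb, the disulfide isomerase that forms the other subunit of prolyl 4-hydroxylase. They were 21311, 19461 and 22769 in cells and 2121, 2491 and 3284 in tissue. Its log2 change was 3.03 (SE 0.21, adjusted p = 6.59e-05). The next were those of ppib, cyclophilin B, with a log2 change of 2.12 (SE 0.22, adjusted p = 0.000296). A further alpha subunit, p4ha3, was at 524, 902 and 617 in cells and 2.67, 63.5 and 63.7 in tissue. Its log2 change of 4.74 (SE 1.1, adjusted p = 0.0110) fell to 3.36 without tissue library 1, and was 5.43 without tissue library 2 or 3. The transferase gene colgalt2, which adds galactose to hydroxylysine, was at 59.8, 188 and 262 in cells and at 0 in every tissue library, which makes it at least 25.6-fold higher in cells. It passed the filter on low values only through its cell libraries, so within the 11 of 11 it could only be called higher.

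Of 10 tested genes of the lysyl oxidase family and its helpers, 8 were higher, with a median log2 change of 1.65. The lysyl oxidase gene loxl3b was at 4349, 4293 and 4401 in cells and 885, 1107 and 1452 in tissue. Its cell libraries were nearly equal, and the log2 change was 1.95 (SE 0.20, adjusted p = 0.000281). The fibulin-4 genes efemp2a and efemp2b, whose product brings lysyl oxidase to its substrate, had log2 changes of 4.42 (SE 0.38, adjusted p = 0.000135) and 6.02 (SE 0.37, adjusted p = 4.12e-05). The largest change was that of loxl4, at 206, 443 and 802 in cells and 0, 19.8 and 0 in tissue. Its fitted log2 change of 7.25 (SE 1.31, adjusted p = 0.00362) was 6.52 without tissue library 1 or 3 and 8.71 without tissue library 2. The 2 genes not past the test were loxl5b (log2 change -0.29, adjusted p = 0.707) and fbln5 (-0.99, adjusted p = 0.0805). Without tissue library 3, 1 gene of this list was called lower.

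Folding and secretion genes were higher in 13 of 17, with a median of 1.88. The second Hsp47 gene, serpinh1a, was at 9836, 10591 and 10031 in cells and 420.0, 538 and 893 in tissue, a log2 change of 4.11 (SE 0.28, adjusted p = 5.91e-05) against 2.63 for serpinh1b. The prolyl isomerase genes fkbp9 and fkbp11 had log2 changes of 4.32 (SE 0.44, adjusted p = 0.000263) and 5.27 (SE 1.27, adjusted p = 0.0130). That of fkbp11 was 3.72 without tissue library 1, where it was at 0, and 6.19 and 5.91 without tissue libraries 2 and 3. The 4 that did not pass were sparc, tmem38b, klhl12 and creb3l1. Of these sparc, which encodes a matrix protein that binds collagen, was at 85918, 116009.6 and 102962 in cells and 100918, 70812 and 82843 in tissue. Its groups overlapped, and the log2 change was 0.26 (SE 0.38, adjusted p = 0.586).

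Propeptide processing genes were higher in 5 of 9, with a median of 2.04. The N-proteinase genes adamts2 and adamts14 had log2 changes of 2.33 (SE 0.17, adjusted p = 8.10e-05) and 1.44 (SE 0.30, adjusted p = 0.00688). The C-proteinase gene bmp1a, whose product pcolcea enhances, had a log2 change of 2.58 (SE 0.25, adjusted p = 0.000198). Its copy bmp1b was low, at 31.3, 46.1 and 56.2 in cells and 0, 11.9 and 0 in tissue. Its log2 change of 4.24 (SE 1.1, adjusted p = 0.0172) lost the call without any single cell library, at adjusted p = 0.0923 to 0.135, and without tissue library 3, at 0.0537. The 4 not past the test were pcolceb, pcolce2a, tll1 and adamts3.

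**Figure D5:**
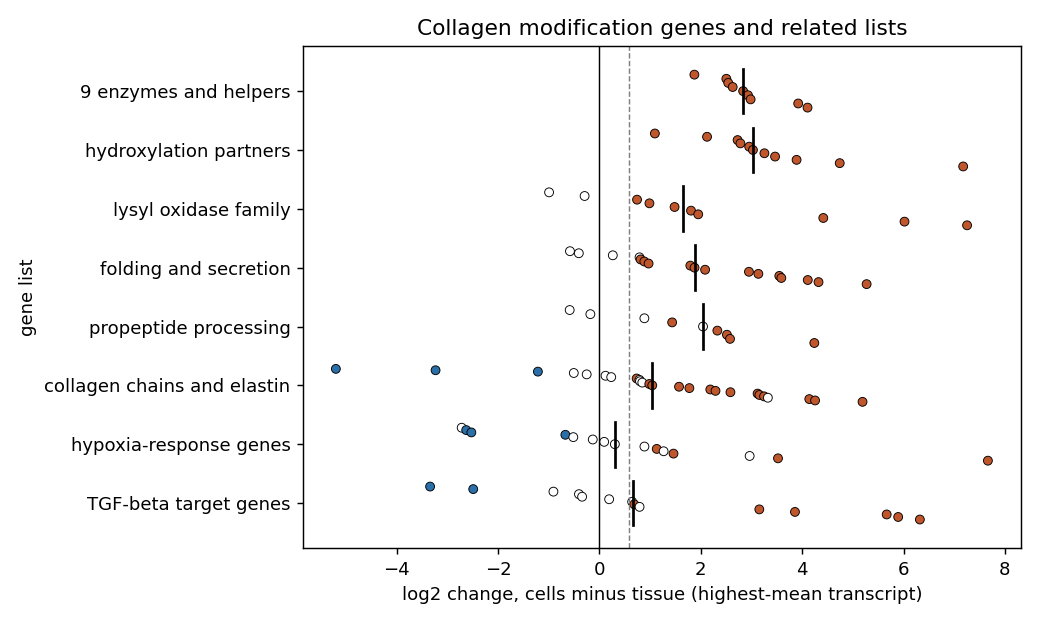
Log2 change (horizontal axis, cells minus tissue, highest-mean transcript) of each tested gene of the 9 enzymes and helpers and of the related lists, with 1 point per gene, vertical lines at 0 and at the median of all names, 0.59, and colours for the call. Points of the 4 collagen-processing lists lie mostly to the right, with 37 of 47 higher, while the hypoxia-response and TGF-beta lists spread to both sides.

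The collagen chains, and 2 sets of genes that respond to signals known to act on these enzymes, were read in the same way. Of 25 tested collagen genes 14 were higher, 3 lower and 8 not past the test, with a median of 1.04. Among all names 30.5% were higher and 21.7% lower. The elastin names elna and elnb were on the list but not among the names measured. The largest changes were those of col4a6, a basement membrane chain, at 4.69, 0 and 2.61 in cells and 69.5, 143 and 99.5 in tissue, and of col10a1a. For col4a6 the log2 change was -5.20 (SE 0.85, adjusted p = 0.00225), and -4.47 without cell library 2. The gene col10a1a, a network-forming chain of cartilage, was at 1224, 1292 and 7051 in cells and 69.5, 87.3 and 35.8 in tissue. Its log2 change was 5.19 (SE 0.71, adjusted p = 0.000995), 4.36 without cell library 3, and it did not pass with voom weights (adjusted p = 0.0614).

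Several of the 9 genes, plod2 and the prolyl hydroxylase subunits among them, are known targets of hypoxia-inducible factor. Of 15 genes of a hypoxia-response list 4 were higher, 3 lower and 8 not past the test, with a median of 0.31. Among all names 30.5% were higher and 21.7% lower, with a median of 0.59, so the list's counts were close to that background. The factor's own gene hif1ab had a log2 change of 1.13 (SE 0.19, adjusted p = 0.00270). The carbonic anhydrase gene ca9 was at 204, 171 and 236 in cells and at 0 in every tissue library, at least 30.6-fold higher. It passed the filter on low values only through its cell libraries, so it could only be called higher. The stress-response gene ndrg1a was at 6952, 1134 and 1016 in cells and 134, 155 and 251 in tissue, and cell library 1 stood far above the rest. Its log2 change of 3.52 (SE 0.73, adjusted p = 0.00677) was 2.63 without that library and did not pass with voom weights (adjusted p = 0.0564). The 3 lower genes were egln3, which encodes a prolyl hydroxylase of the factor itself, with a log2 change of -2.63 (adjusted p = 0.00140), ankrd37 (-2.53, adjusted p = 0.00279) and bnip3la (-0.67, adjusted p = 0.0179).

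Of 14 genes of a TGF-beta list 6 were higher, 2 lower and 6 not past the test, with a median of 0.67, close to the 0.59 of all names, of which 30.5% were higher and 21.7% lower. The connective tissue growth factor gene ccn2b was at 6156, 13969 and 9056 in cells and 139, 107 and 99.5 in tissue. Cell library 2 was the highest, and the log2 change was 6.32 (SE 0.31, adjusted p = 2.10e-05). The periostin genes postna and postnb, whose product binds BMP1 and collagen, were lower in cells, by log2 changes of -2.49 (SE 0.25, adjusted p = 0.000238) and -3.34 (SE 0.28, adjusted p = 0.000131). On equal totals that of postna was 0.051. Equal totals also moved the counts of these lists. Of 26 collagen genes 23 were then higher and 1 lower, and of the 15 hypoxia-response genes 12 and 0. Of the 14 TGF-beta genes 12 were higher and 1 lower. The share of all names called on equal totals is not given here, and their median moved to 3.10. Relative to that median the medians of the collagen, hypoxia-response and TGF-beta lists stood at 0.45, -0.26 and 0.11. On the deposited scale they stood at 0.46, -0.28 and 0.08 relative to all names.

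Markers of other cell types went in both directions, to be set beside the 30.5% of all names that were higher and the 21.7% that were lower. Fibroblast markers were higher in 12 of 18 and lower in 4, with a summed level of 76256 to 82986 in cells and 50482 to 54796 in tissue, and none was at 0 in all cell libraries. Tendon cell markers were higher in 5 of 9 and lower in 2, with a sum of 99863 to 120544 in cells and 3582 to 4574 in tissue, most of it thbs4b at 110386, 115067 and 95673 in cells. Myoblast and satellite cell markers were higher in 3 of 10 and lower in 3. Smooth muscle and pericyte markers were higher in 3 of 8 and lower in 4. Endothelial markers were lower in 6 of 9, erythroid markers in 4 of 4 and leukocyte markers in 6 of 6, with lcp1 and laptm5 at 0 in all cell libraries and a leukocyte sum of 5.23 to 9.22 in cells against 4057 to 6457 in tissue. That leukocyte sum was below 10 in every cell library. All 6 leukocyte markers therefore passed the filter on low values only through tissue, and could only be called lower. The erythroid sum was 1.56 to 14.8 in cells against 1525 to 12527 in tissue. At these levels some erythroid markers also passed only through tissue, and those could only be called lower. The part of the cell mix in the level of the 9 genes was not tested.

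Closeness of pattern was measured by the root mean square difference of centred log2 values over the 6 libraries. With members of the set left out, the names closest to 2 of the genes were taken. For plod2 they were slc12a2 at 0.0905, bag6l at 0.141 and baz2ba at 0.144. For serpinh1b they were cd99 at 0.0801, snx18a at 0.0991 and idi1 at 0.106. The same 3 names came out for each gene with a pseudocount of 5. None of them is on the other collagen lists used here.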

How the data were processed

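RNA of 3 cultured cell and 3 muscle tissue libraries was extracted with TRIzol, and stranded poly(A) libraries were made, per the labels' protocols. Tools listed in the submitters' processing notes are Bowtie2, DESeq2, FastQC 0.11.8 and Trimmomatic, and the build listed is GRCz11 (zebrafish). How reads were counted is not given in the sources used here. In the table the deposited values are normalised counts by the authors, read counts divided by 1 size factor per library. In every library 100% of values were whole multiples of the smallest value above 0, within 0.01, so reads could be recovered.

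Before taking log2, 1 was added to every value. All 6 libraries entered a single limma fit (version 3.58.1, under R 4.3.3). It used an intensity trend and no block, and p-values were adjusted by Benjamini-Hochberg. The fitted change of a low gene can be larger or smaller than the ratio of its group means implies. It was larger for loxl4, at 7.25 with a cell mean 73.2 times the tissue mean. It was smaller for coro1a, a leukocyte marker, at -9.61 with a cell mean 0.000157 times the tissue mean. Transcripts entered if 3 or more libraries reached a value of 10, which left 65662. A transcript below 10 in every library of a group entered only through the other group, so its call could go only 1 way. This held, among others, for colgalt2, ca9, col4a6, some erythroid markers and all 6 leukocyte markers, lcp1 and laptm5 among them. The fit was also run on simulated counts, but the outcome is not given here and no result above rests on it. Replicate pairs differed beyond sampling noise (chi-square of 47.8 to 211.7 per degree of freedom).

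The 9 genes and all lists were chosen with earlier results of these data known. Named genes were the members, in each related list the 2 with the highest mean and the 2 largest changes past the threshold, and the 3 closest names to plod2 and serpinh1b. A gene that this rule names in the TGF-beta list is not reported here. Genes named because they did not pass, and egln3, ankrd37, bnip3la, pax7b, desma, thbs4b and loxa, were chosen after their values were seen. So were the chains col5a1, col5a2a, col8a2, col11a1b and col27a1b. Ratios were tested with exact permutation tests in Python 3.11.15 with scipy 1.17.1.

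Settings varied were the pseudocount (0.5 and 5), the filter (none, and 50), equal totals, TMM, upper quartile and median-of-ratios scaling, a replicate block, a robust prior, voom weights, summed names and leaving out each library. Chosen after the data were seen were the transcript highest in cells or in tissue alone and the loxl1 to loxl2b ratio. The planned edgeR and DESeq2 models were not run. No genome was used, so no positions or sequences are given.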

Additional observations from a re-analysis of the deposited data

How the results depend on the processing

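Each of the 9 genes kept its direction and stayed past the threshold under all 20 alternatives, 180 values in all, with a largest adjusted p of 0.00705 (plod2, limma). Of the named list genes 480 values kept their call, 7 gained it, 6 lost it and 1 turned its sign. The last was postna at 0.051 on equal totals, which was then past the threshold in neither direction (limma adjusted p = 0.845). Fits that a gene did not enter are not in these counts. Among them are those of colgalt2 and ca9 with a cell library left out, and of col4a6 with a tissue library left out. Related genes called higher ranged from 32 to 46 over all alternatives. The 46 came on equal totals, where the median change of all names was 3.10, against 0.59 on the deposited scale. The share of all names called under each alternative is not given here. Related genes called lower ranged from 0 to 1 when libraries were left out, the 1 without tissue library 3. The log2 ratio of loxl1 to loxl2b ranged from -0.36 to 0.16 over the libraries left out, with the sign turned without cell library 3. Whether the replicate numbers pair the samples is not given in the labels. Correlations of same-numbered deviations were -0.06, -0.04 and -0.02, which cannot settle it. A fit with the replicate block called 9 of 9 genes higher and 37 related genes higher. The edgeR and DESeq2 models on recovered reads were not run, and neither were ratios and similar names for lox. With 3 libraries a group the exact tests cannot go below 0.1, and 3 reads in tissue amount to 5.95 to 8.02, which limits the low transcripts.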
